A study of Mus musculus with 6 samples.

Results

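The genes described here encode the subunits of the proteasome, its activators and the chaperones that assemble it. They were chosen by gene name: every protein-coding row whose symbol starts with Psma, Psmb, Psmc, Psmd, Psme, Psmf or Psmg was taken, which gave 50 of the 54532 rows of the deposited table. The rule itself used no measured value, although earlier results of these data were known when it was set. A total of 49 are subunits or partners of the particle, and 1, Psmc3ip, matched by name only. It encodes a meiotic recombination factor first found as a binding partner of Psmc3.

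The samples were pancreatic buds from mouse embryos at E12.5, grown for 2 days in M199 medium with 10% fetal bovine serum and 0.1% DMSO. The 3 control libraries (Control 1 to 3) came from buds in this medium alone, and the 3 others (TBZ 1 to 3) from buds that also received 0.1 µM tetrabenazine (TBZ) throughout the culture. Tetrabenazine blocks VMAT2, the transporter that loads monoamines into vesicles, and the study asked what happens in the developing pancreas when that pathway is inhibited. Strain and sex are not given in the sources used here, and nothing says whether the replicates came from separate litters or cultures, so p-values measure only the spread between these samples.

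The 26S proteasome is the protease that degrades ubiquitin-tagged proteins in every cell. Its 20S core is a stack of alpha and beta rings, and the catalytic sites sit on the beta subunits Psmb5, Psmb6 and Psmb7. A 19S cap with an ATPase ring and a set of non-ATPase subunits recognises, unfolds and feeds in the substrate. Interferon gamma induces Psmb8, Psmb9 and Psmb10, which replace the constitutive catalytic subunits in new particles (the immunoproteasome), and also Psme1 and Psme2, which form an alternative 11S cap. Transcription of the constitutive genes is raised through antioxidant response elements, above all by Nfe2l1, when proteasome activity falls.

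The start-site sequences of 5 members are shown because they hold, or in the case of Psmb9 lack, letters of response motifs known from the regulation of constitutive and immune proteasome genes. RefSeq windows of GRCm38.p6, from 250 bases before to 50 bases after a RefSeq start, were found for 42 of the 50 members. Among them were 5 of the 6 catalytic genes. The window nearest the deposited gene start was taken. For Psmb8, Psmb9 and Psme1 it lies wholly inside the deposited gene, which starts further upstream (34197721, 34187764 and 55578123). Capitals mark the antioxidant response element TGACNNNGC in Psmb5 (chr14:54617946-54618245, minus strand) and Psmb6 (chr11:70525107-70525406, plus strand). In Psmb8 (chr17:34197945-34198244, plus strand) they mark TTCNNNGAA, the core of a gamma interferon activated site, and in Psme1 (chr14:55578244-55578543, plus strand) the reverse complement of a pair of GAAA with 2 bases between them, the core of an interferon regulatory factor site. In Psmb9 (chr17:34187281-34187580, minus strand), where neither interferon motif occurs, they mark GGGCGG (GC box) and ATTGG, the reverse complement of CCAAT.
Psmb5: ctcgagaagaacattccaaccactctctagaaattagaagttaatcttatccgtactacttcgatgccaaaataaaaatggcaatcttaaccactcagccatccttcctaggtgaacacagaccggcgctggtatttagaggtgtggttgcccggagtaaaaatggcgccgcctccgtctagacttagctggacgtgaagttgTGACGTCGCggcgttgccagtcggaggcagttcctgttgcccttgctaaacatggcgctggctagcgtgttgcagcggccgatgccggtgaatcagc
Psmb6: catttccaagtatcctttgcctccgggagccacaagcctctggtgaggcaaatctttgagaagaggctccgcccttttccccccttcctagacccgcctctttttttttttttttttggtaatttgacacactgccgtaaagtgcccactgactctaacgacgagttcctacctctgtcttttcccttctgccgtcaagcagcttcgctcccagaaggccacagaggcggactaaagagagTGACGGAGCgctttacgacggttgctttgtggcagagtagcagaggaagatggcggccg
Psmb8: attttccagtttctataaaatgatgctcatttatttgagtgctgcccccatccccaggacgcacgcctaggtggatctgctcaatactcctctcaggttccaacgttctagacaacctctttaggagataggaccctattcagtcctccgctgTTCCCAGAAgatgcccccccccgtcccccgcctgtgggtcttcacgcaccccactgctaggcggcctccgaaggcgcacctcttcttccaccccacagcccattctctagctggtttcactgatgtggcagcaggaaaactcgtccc
Psmb9: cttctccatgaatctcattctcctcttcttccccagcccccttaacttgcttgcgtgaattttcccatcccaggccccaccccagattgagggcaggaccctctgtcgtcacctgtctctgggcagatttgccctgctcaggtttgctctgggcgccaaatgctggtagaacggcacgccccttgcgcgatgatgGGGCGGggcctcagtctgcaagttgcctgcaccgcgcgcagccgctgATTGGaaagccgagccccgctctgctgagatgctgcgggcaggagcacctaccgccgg
Psme1: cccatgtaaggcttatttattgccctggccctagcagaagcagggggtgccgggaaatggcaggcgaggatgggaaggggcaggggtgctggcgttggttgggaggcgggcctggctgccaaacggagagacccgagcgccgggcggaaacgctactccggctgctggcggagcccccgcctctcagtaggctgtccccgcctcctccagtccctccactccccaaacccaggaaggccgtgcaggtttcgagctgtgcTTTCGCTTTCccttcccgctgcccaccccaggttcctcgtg

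Counted on both strands, TGACNNNGC occurred in 6 of the 42 members' windows (14.3%) and in 12.4% of all 32851 windows. The 6 were Psmb5, Psmb6, Psmc6, Psmd12, Psmd9 and Psme4. The spaced pair of GAAA occurred in 5 (11.9%, against 3.44% of all windows), which were Psmb3, Psmd4, Psmd9, Psme1 and Psmg4. TTCNNNGAA, which reads the same on both strands, occurred in 3 (7.14%, against 8.30%), namely Psmb8, Psmd2 and Psmg1. CCAAT occurred in 15 (35.7%, against 37.4%) and GGGCGG in 23 (54.8%, against 35.7%). The element of Psmd9 overlapped its own GC box, and the windows of Psmb9 and of the divergent peptide transporter gene Tap1 share 275 of 300 bases. Members were counted by their chosen window only, while the 32851 windows were not reduced per gene, so the shares compare unlike units. These are matches of letters and not measured binding sites.

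Each library held between 35825033 and 50620936 counted reads. Every control library was deeper than every TBZ library (46.2 ± 4.85 against 39.2 ± 2.93 megareads, SD, n = 3; two-sided exact permutation p = 0.1, the smallest that 3 against 3 allows). Levels are given as deposited FPKM (fragments per kilobase of gene and megaread), whose library sizes differ somewhat from the totals of counted reads. Pancreatic bud markers were present in every library, and their summed FPKM was 953 to 1060 in control and 1189 to 1396 in TBZ. All 9 had a log2 fold change above 0, 5 had groups separated upward and 1 was called higher by edgeR. Over all genes tested, 50.1% lay above 0, 8.47% were separated upward and 0.187% were called in either direction. Markers of stomach and oesophagus summed to 99.8 to 130 in control and 79.6 to 110 in TBZ, with 1 of 12 at 0 in every library. Of the 9 tested, 0 were called and 5 had an unadjusted p under 0.05 in edgeR, beside 9.61% of all genes tested. Groups were separated upward for 1 and downward for 2, beside 8.47% and 7.03%. Log2 fold changes over all 9 ran from -2.91 to 1.37. The part of these shifts in any result was not tested, and in whole buds a change in the cells of a type cannot be told apart from a change in RNA per cell.

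No proteasome gene was called different between TBZ and control buds. All 50 members had a read in every library and 49 passed the filter on low counts. With edgeR's quasi-likelihood test and Benjamini-Hochberg adjustment over 18226 genes, 0 of the 49 reached an adjusted p under 0.05, beside 0.187% of all genes tested. DESeq2 called 0 of the 48 members to which it gave an adjusted p, beside 1.43% of its genes, and the authors' deposited table called 0 as well, with a smallest adjusted p of 0.721. Only Psmd13 had an unadjusted p under 0.05, that is 1 of 49 members beside 9.61% of all genes tested.

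A total of 22 members had a log2 fold change (TBZ over control) above 0 and 27 had one below, where 50.1% of all genes tested were above. Their median was -0.0026, beside 0.00031 for all genes tested. The median absolute log2 fold change of the members was 0.025, beside 0.081 for all genes tested and 0.069 for the protein-coding ones. Replicates of these genes also lay close together. The median coefficient of variation of CPM (counts per megaread, TMM-scaled) in control was 3.58% for members. It was 7.35% for all genes tested and 6.26% for the protein-coding ones. The members were also more abundant, with a median of mean FPKM of 39.2, beside 4.50 and 5.94. The part of abundance in these narrow spreads was not tested. Groups did not overlap for 4 members, 1 higher in TBZ (Psmd11) and 3 lower (Psmb3, Psmd13 and Psmg1), where 8.47% of all genes tested were separated upward and 7.03% downward.

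A missed threshold does not show that a level was equal, so the width of the intervals was set beside it. For 42 of the 49 members the 95% interval of the fold change lay within 1.2-fold either way, a limit chosen after the values were seen. Over all genes tested the share was 45.1%, and among the 15196 protein-coding genes tested 8081 lay within the limit. All 31 constitutive subunits of the 26S particle were among the 42, and their intervals ran from -11.2% to 11.9%. The 7 outside it were the immune catalytic genes Psmb8, Psmb9 and Psmb10 together with Psma8, Psme2b, Psmg4 and Psmc3ip.

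**Figure D1:**
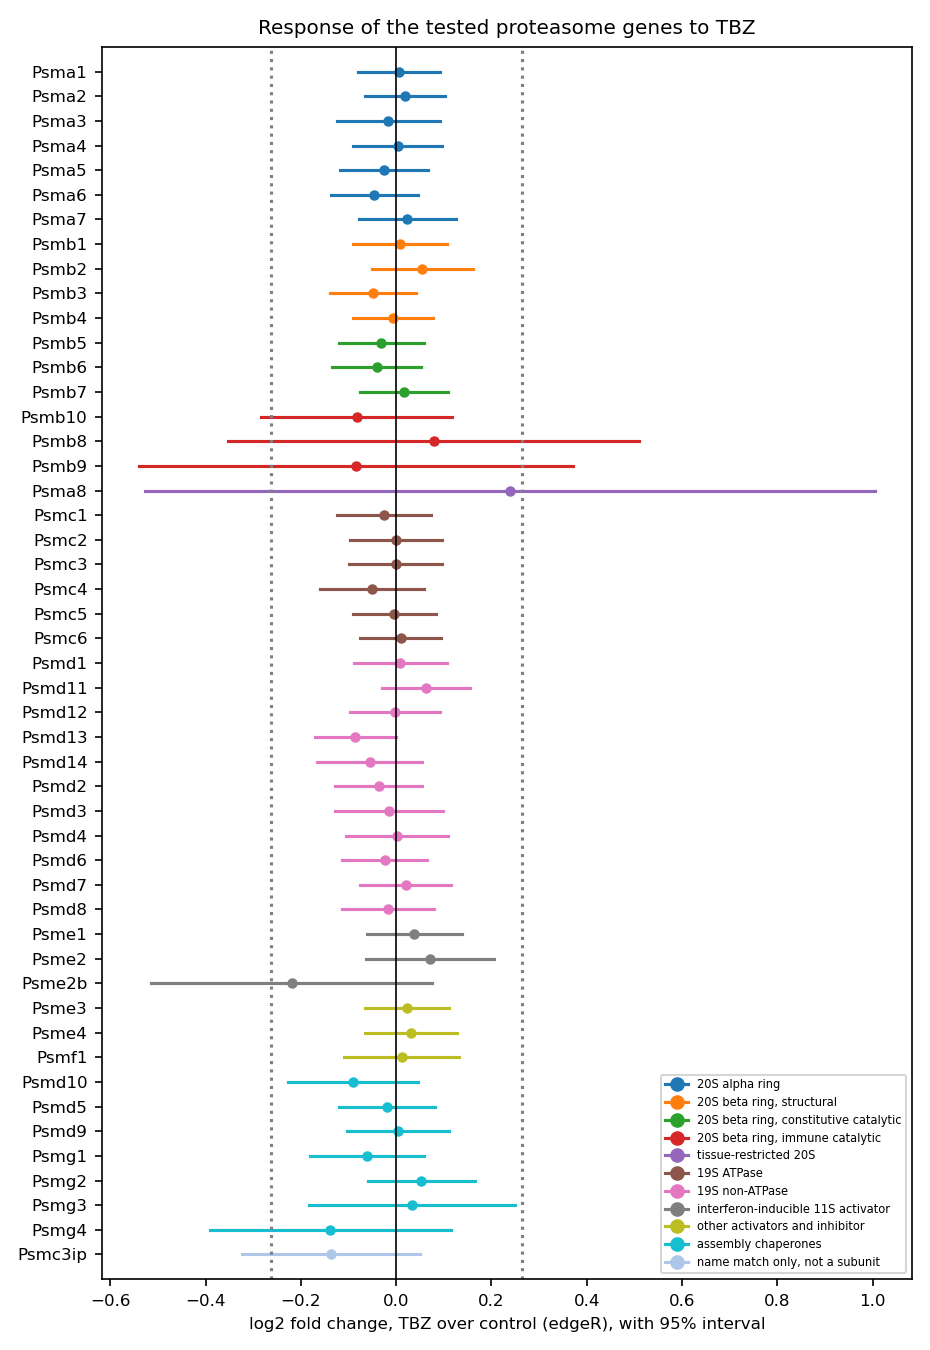
Log2 fold change of TBZ over control for the 49 tested members, with 95% intervals from the edgeR fit (3 libraries per group); colours give the role and dotted lines mark 1.2-fold either way. The intervals of the 31 constitutive 26S subunits among them lie inside the dotted lines, and those of Psmb8, Psmb9 and Psma8 are the widest.

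The 7 alpha-ring genes, whose products form the outer rings and the gate of the core, had log2 fold changes from -0.046 to 0.023 with a median of 0.0035. None of the 7 passed the test. Psma6, the alpha gene with the highest FPKM, measured 122, 127 and 128 in control and 123, 120 and 123 in TBZ, and the groups overlapped. Its log2 fold change was -0.046 (SE 0.040, edgeR adjusted p = 0.758). Psma5 measured 92.9, 89.3 and 90.8 FPKM in control against 90.6, 90.8 and 86.5 in TBZ, again overlapping (-0.025, SE 0.041, edgeR adjusted p = 0.881). Psma3 was the lowest of the ring, at 29.7 ± 1.5 FPKM in control and 29.3 ± 0.55 in TBZ (SD, n = 3).

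Among the 4 structural beta genes, whose products line the inner rings without an active site, 2 log2 fold changes were positive and 2 negative. Psmb4, the highest by FPKM, measured 101, 100 and 100 in control and 100, 98.2 and 101 in TBZ. Psmb3 measured 43.9, 43.8 and 45.7 FPKM in control and 42.4, 42.8 and 43.6 in TBZ. Every TBZ library was below every control library for Psmb3, yet the gap was small: its log2 fold change was -0.049 (SE 0.040, edgeR adjusted p = 0.744). Psmb2 went the other way, at 82.6, 80.1 and 88.4 FPKM in control against 85.4, 88.1 and 87.2 in TBZ. These groups overlapped through Control 3 (0.055, SE 0.047, edgeR adjusted p = 0.752).

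The constitutive catalytic genes were abundant and even between groups. Psmb5, the chymotrypsin-like subunit (ENSMUSG00000022193, chr14:54614119-54618022), measured 126, 121 and 122 FPKM in control and 119, 122 and 120 in TBZ. Psmb6, the caspase-like subunit (ENSMUSG00000018286, chr11:70525367-70527858), measured 90.2, 88.5 and 92.1 in control and 84.9, 88.6 and 89.4 in TBZ. Psmb7, the trypsin-like subunit (ENSMUSG00000026750, chr2:38588036-38644087), measured 37.0, 35.2 and 35.7 in control and 36.4, 37.2 and 35.4 in TBZ. The ranges of the groups overlapped for each of the 3 genes. On the log2 scale Psmb5 differed by -0.031 (SE 0.040, edgeR adjusted p = 0.845) and Psmb6 by -0.041 (SE 0.041, edgeR adjusted p = 0.787). For Psmb7 it was 0.016 (SE 0.041, edgeR adjusted p = 0.931).

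The 6 ATPase genes of the 19S cap, which unfold the substrate, had log2 fold changes between -0.051 and 0.0092. Psmc5, the highest of them, measured 110, 108 and 112 FPKM in control and 109, 108 and 111 in TBZ. Psmc1 measured 99.6, 101 and 108 FPKM in control and 101, 102 and 100 in TBZ, and Psmc4 61.0, 58.3 and 65.2 against 59.8, 59.1 and 58.9. Control 3 was the highest library for all 3 of these genes. Psmc4 had the most negative value of the ring (-0.051, SE 0.048, edgeR adjusted p = 0.775), and the groups overlapped for every ATPase gene.

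The 11 non-ATPase genes include the scaffold, the ubiquitin receptor Psmd4 and the deubiquitinase Psmd14. Psmd13, a lid subunit, measured 35.2, 34.5 and 34.9 FPKM in control and 32.6, 33.3 and 32.6 in TBZ. All 3 TBZ libraries lay below all 3 control libraries. The difference was -5.77% (95% interval -11.2% to -0.049%; log2 fold change -0.086, SE 0.038), with an unadjusted p of 0.0485 and an adjusted p of 0.514 in edgeR. Psmd11, another lid subunit, measured 18.1, 17.2 and 18.2 FPKM in control and 18.7, 18.4 and 18.6 in TBZ, so that its groups were separated in the opposite direction (0.062, SE 0.041, edgeR adjusted p = 0.672). Psmd2, a scaffold of the base and the member with the most reads (a mean of 14231 per library), measured 80.9, 83.2 and 85.9 FPKM in control and 81.6, 82.5 and 79.4 in TBZ. Its log2 fold change was -0.037 (SE 0.041, edgeR adjusted p = 0.813). Exons of Psmd13 share 10.1% of their bases with Sirt3 on the other strand, and the library kit is not stated to keep strand, so reads of the pair cannot be fully told apart.

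Subunits of a complex with fixed stoichiometry can be compared by level only per length, and the length used changed the picture. By the deposited FPKM in control, the 31 constitutive 26S genes ran from 17.8 (Psmd11) to 126 (Psma6), a 7.05-fold range. The deposited length is the union of all annotated exons for 46 of the 50 members. An alternative added after seeing the data divided the same counts by the length of the GENCODE M21 principal transcript. Where several transcripts carried that tag the longest was taken, and without a tag the longest protein-coding one. The range was then 40.0 (Psmd11) to 212 (Psmb6), or 5.30-fold. The 6 ATPase genes narrowed from 3.63-fold to 1.69-fold and the 4 structural beta genes from 2.36-fold to 1.49-fold. The alpha ring widened from 4.24-fold to 5.17-fold. Its ends were then Psma3 (2846 bases) and Psma7 (914 bases), so this range depends on the transcript taken. The order of the catalytic genes changed as well: Psmb5, Psmb6 and Psmb7 were at 123, 90.3 and 35.96 by the deposited length and at 123, 212 and 106 by the principal transcript.

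**Figure D2:**
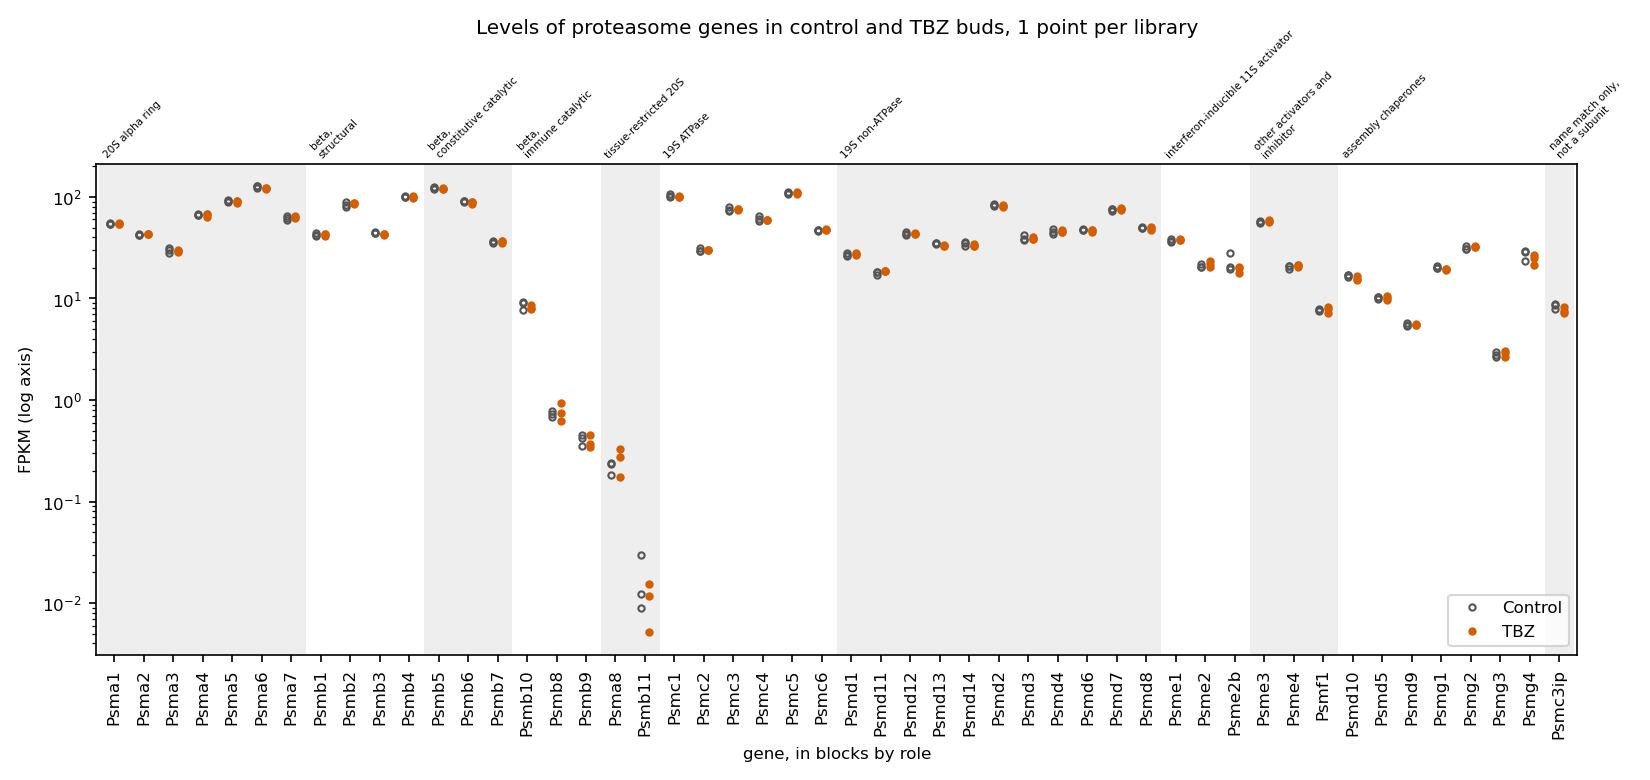
Deposited FPKM (log axis) of the 50 members in blocks by role, 1 point per library, with open points for the 3 control and filled points for the 3 TBZ libraries. The constitutive 26S genes lie between about 17.8 and 126 FPKM in control, while Psmb8, Psmb9, Psma8 and Psmb11 lie below 1.

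The immune catalytic genes were expressed at a far lower level than their constitutive counterparts and did not differ detectably between groups. Psmb10 (ENSMUSG00000031897, chr8:105935735-105938444), the counterpart of Psmb7, measured 7.75, 9.06 and 9.19 FPKM in control and 8.64, 7.92 and 7.97 in TBZ. Psmb8 (ENSMUSG00000024338, chr17:34197721-34201454), the counterpart of Psmb5, measured 0.677, 0.776 and 0.733 in control and 0.623, 0.751 and 0.938 in TBZ. Psmb9 (ENSMUSG00000096727, chr17:34181988-34187764), the counterpart of Psmb6, measured 0.454, 0.355 and 0.424 in control and 0.372, 0.341 and 0.450 in TBZ. The lowest and highest Psmb8 values were both TBZ libraries, and control and TBZ libraries were interleaved for Psmb9 and Psmb10.

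For Psmb10 the log2 fold change was -0.083 (SE 0.089, edgeR adjusted p = 0.808), with a 95% interval of -17.8% to 8.52%. Psmb8 stood at 0.078 (SE 0.19, edgeR adjusted p = 0.929) and Psmb9 at -0.085 (SE 0.20, edgeR adjusted p = 0.927). Their intervals were wide, -21.7% to 42.4% for Psmb8 and -31.2% to 29.3% for Psmb9. Both rest on few reads: 69 to 108 per library for Psmb8 and 51 to 78 for Psmb9, beside 487 to 786 for Psmb10. Counting alone gives a coefficient of variation of 10.7% for Psmb8 and 12.7% for Psmb9. Changes of the sizes spanned by those intervals are not excluded, and the part of depth in their width was not tested. Psmb8 and Psmb9 are neighbours on chromosome 17 (34181988 to 34201454, with Tap1 between them). Of the Psmb8 exon bases in GENCODE M21 (3381, beside a deposited length of 2736), 14.7% lie opposite the unnamed gene model Gm20496. For Psmb9, 5.79% lie opposite Tap1. Among the constitutive counterparts, Psmb5 shares 12.1% with Mir686 on the same strand and Psmb7 11.8% with Nek6 on the other strand. Psmb6 and Psmb10 overlap no other gene.

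The median log2 fold change was -0.083 for the 3 immune and -0.031 for the 3 constitutive catalytic genes, a difference of -0.052. That difference took both signs when single libraries were left out, from -0.056 without TBZ 3 to 0.043 without TBZ 2, and it was 0.015 with limma on log2(FPKM + 0.5), where Psmb9 fell below the filter.

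The balance within each catalytic pair was measured as the immune share of the pair's summed FPKM. For Psmb10 with Psmb7 the share was 17.3%, 20.5% and 20.5% in control and 19.2%, 17.6% and 18.4% in TBZ. For Psmb8 with Psmb5 it was 0.534%, 0.638% and 0.597% in control and 0.521%, 0.610% and 0.777% in TBZ. For Psmb9 with Psmb6 it was 0.501%, 0.399% and 0.458% in control and 0.436%, 0.383% and 0.501% in TBZ. The groups overlapped in all 3 pairs. Group means were 19.4% ± 1.82 against 18.4% ± 0.795 for Psmb10, 0.589% ± 0.0523 against 0.636% ± 0.130 for Psmb8 and 0.453% ± 0.0512 against 0.440% ± 0.0588 for Psmb9 (SD, n = 3). Two-sided exact permutation tests gave p = 0.4 for Psmb10, p = 0.7 for Psmb8 and p = 0.7 for Psmb9, each 0.7 after adjustment over the 3 pairs, where 3 against 3 cannot go below 0.1.

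By deposited FPKM in control, Psmb5 exceeded Psmb8 170-fold and Psmb6 exceeded Psmb9 222-fold, but Psmb7 exceeded Psmb10 only 4.18-fold. The pairs kept their order with principal transcript lengths, where the control shares were 0.987% for Psmb8, 0.522% for Psmb9 and 9.62% for Psmb10. The sizes depended on the length: the Psmb10 share was 19.4% by the deposited one. With principal lengths Psmb7 stood at 106 and Psmb10 at 11.3 in control. All 3 immune genes together made up 3.79% ± 0.350 of the FPKM of the 6 catalytic genes in control and 3.68% ± 0.175 in TBZ (exact permutation p = 0.6, n = 3). Leukocytes carry immune subunits at high level, and the 12 leukocyte markers were present in all libraries. Their summed FPKM was 275 to 341 in control and 264 to 333 in TBZ, and 0 of 12 were called, beside 0.187% of all genes tested. None of the 12 was at 0. How much of the Psmb8, Psmb9 and Psmb10 reads came from such cells was not tested.

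**Figure D3:**
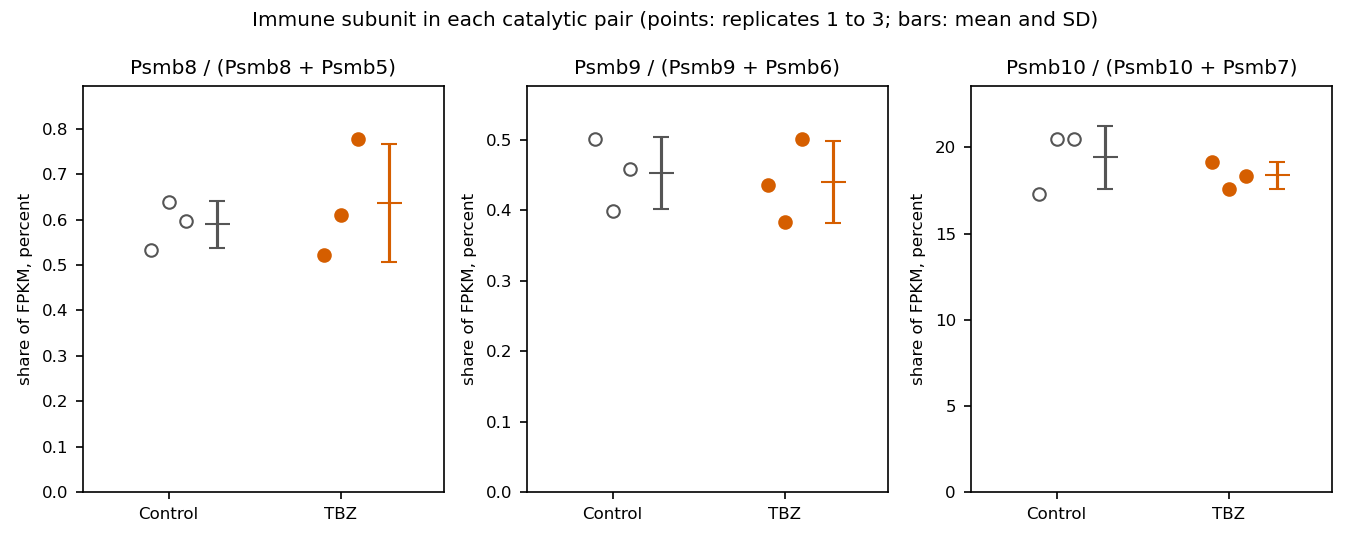
Immune share of summed FPKM (percent) in each of the 3 catalytic pairs, with 1 point per library and bars for the mean and SD of 3 libraries. Control and TBZ points overlap in every panel, and the Psmb10 panel runs near 20% while those of Psmb8 and Psmb9 stay below 1%.

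Psme1, a subunit of the interferon-inducible 11S cap, was expressed at a level like that of many constitutive genes: 35.8, 37.0 and 38.9 FPKM in control and 38.0, 38.0 and 38.5 in TBZ. The groups overlapped (log2 fold change 0.038, SE 0.044, edgeR adjusted p = 0.830). Its partner Psme2 lies beside it on chromosome 14 and measured 21.8, 20.3 and 20.3 FPKM in control and 21.8, 20.5 and 23.3 in TBZ (0.071, SE 0.060, edgeR adjusted p = 0.746). The intronless copy Psme2b on chromosome 11 measured 20.4, 19.7 and 27.9 in control and 20.2, 20.1 and 17.8 in TBZ. Control 3 stood above the other libraries for Psme2b, whose log2 fold change was -0.22 (SE 0.13, edgeR adjusted p = 0.636).

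The aligned stretches of the Psme2 and Psme2b transcripts are identical at 789 of 794 bases (99.4%), so the division of reads between them is uncertain. Summed over both genes, an alternative added after seeing the data, the level was 55.7, 52.4 and 59.4 CPM in control and 55.6, 53.2 and 56.2 in TBZ. The means were 55.8 ± 3.51 and 55.005 ± 1.58 CPM (SD, n = 3; two-sided exact permutation p = 0.8).

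Psme3, the nuclear 11S activator, Psme4, a large activator of the core, and Psmf1, an inhibitor of the core in vitro, had log2 fold changes from 0.011 to 0.031, all without passing the test. Psme3 measured 56.9, 55.9 and 57.9 FPKM in control and 59.0, 57.5 and 56.7 in TBZ. Psme4 measured 21.1, 20.9 and 19.7 FPKM in control and 21.3, 21.1 and 20.5 in TBZ. Both sets of values overlapped between the groups.

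The 7 assembly chaperones comprise Psmg1 to Psmg4, which help build the core, and Psmd5, Psmd9 and Psmd10, which help build the base of the cap. Psmd10 measured 16.2, 17.0 and 17.2 FPKM in control and 15.5, 15.4 and 16.5 in TBZ, overlapping through TBZ 3 (log2 fold change -0.091, SE 0.060, edgeR adjusted p = 0.673). Psmg1 measured 19.7, 20.9 and 19.97 in control and 19.4, 19.5 and 19.2 in TBZ, with every TBZ library below every control library (-0.062, SE 0.053, edgeR adjusted p = 0.753). Psmg4 measured 29.2, 23.4 and 28.4 in control and 25.2, 26.8 and 21.5 in TBZ. Its replicates varied more than those of the other chaperones, with a control coefficient of variation of 11.7%, and its log2 fold change was -0.14 (SE 0.11, edgeR adjusted p = 0.736). Psmg2, the highest of the group, measured 30.5, 30.7 and 32.6 FPKM in control and 32.3, 33.0 and 31.8 in TBZ (0.053, SE 0.050, edgeR adjusted p = 0.774).

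The tissue-restricted core genes were close to silent. Psma8, the alpha subunit of the testis, had 19, 20 and 13 reads in control and 19, 12 and 20 in TBZ, and its log2 fold change of 0.24 (SE 0.34, edgeR adjusted p = 0.861) carried a 95% interval from -30.7% to 101%. Psmb11, the beta subunit of thymic cortical epithelium, had 2, 3 and 6 reads in control and 1, 3 and 2 in TBZ and was not tested. Psmc3ip, the name match outside the complex, measured 8.64, 7.82 and 8.82 FPKM in control and 7.21, 7.59 and 8.16 in TBZ (-0.14, SE 0.083, edgeR adjusted p = 0.643). Without Psmc3ip and Psme2b, the median log2 fold change of the members was -0.0014.

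**Figure D4:**
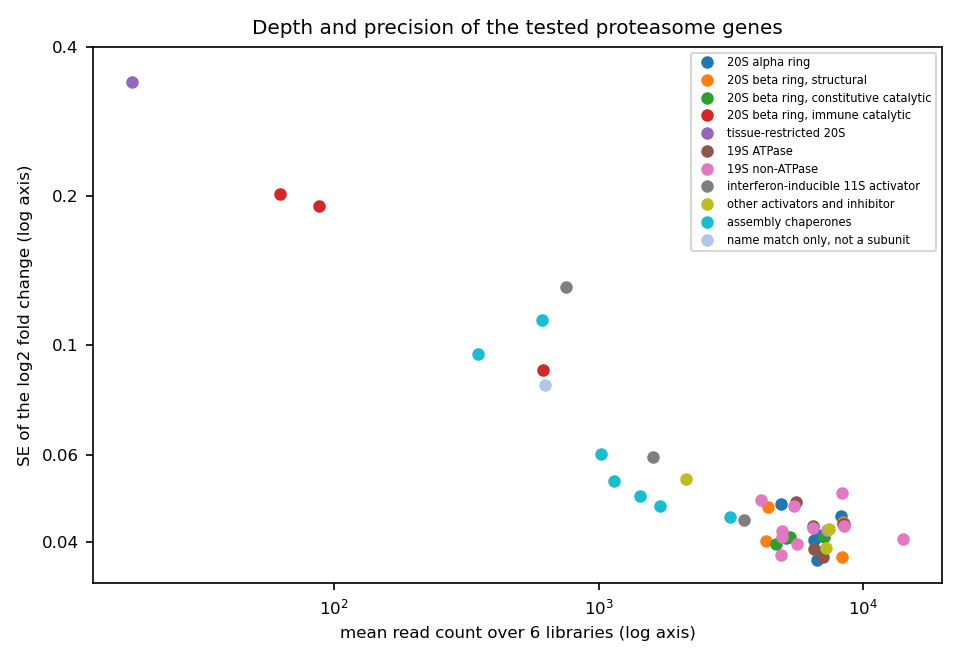
Standard error of the log2 fold change against the mean read count over the 6 libraries for the 49 tested members (both axes log scale), coloured by role. The genes with the most reads have errors near 0.04, while Psmb8 and Psmb9 are at 0.19 and 0.20 and Psma8 at 0.34.

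The 31 constitutive 26S genes had mean counts of 4110 to 14231 reads and standard errors of 0.037 to 0.050 on the log2 scale. Psmb10, Psmg4 and Psme2b, with means of 616, 614 and 754 reads, had standard errors of 0.089, 0.11 and 0.13. The error of Psme2b went with a spread between control libraries (coefficient of variation 20.2%) above that of counting (3.64%).

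Across libraries, the share of all FPKM held by the 50 members was 0.736%, 0.737% and 0.770% in control and 0.728%, 0.736% and 0.729% in TBZ. Control 3 was the highest library, and TBZ 2 lay between the other two control libraries. The means were 0.748% ± 0.0192 and 0.731% ± 0.00434 (SD, n = 3; two-sided exact permutation p = 0.2). As a median over the tested members of log2 CPM against the control mean, Control 3 stood at 0.034, Control 1 at -0.0031 and Control 2 at -0.024, while TBZ 1 to 3 were at -0.0060, -0.011 and -0.011. The TBZ libraries thus lay inside the range of the controls. Of the 7 role groups scored this way, the immune catalytic group moved over the widest range, from -0.14 in TBZ 1 to 0.14 in TBZ 3.

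**Figure D5:**
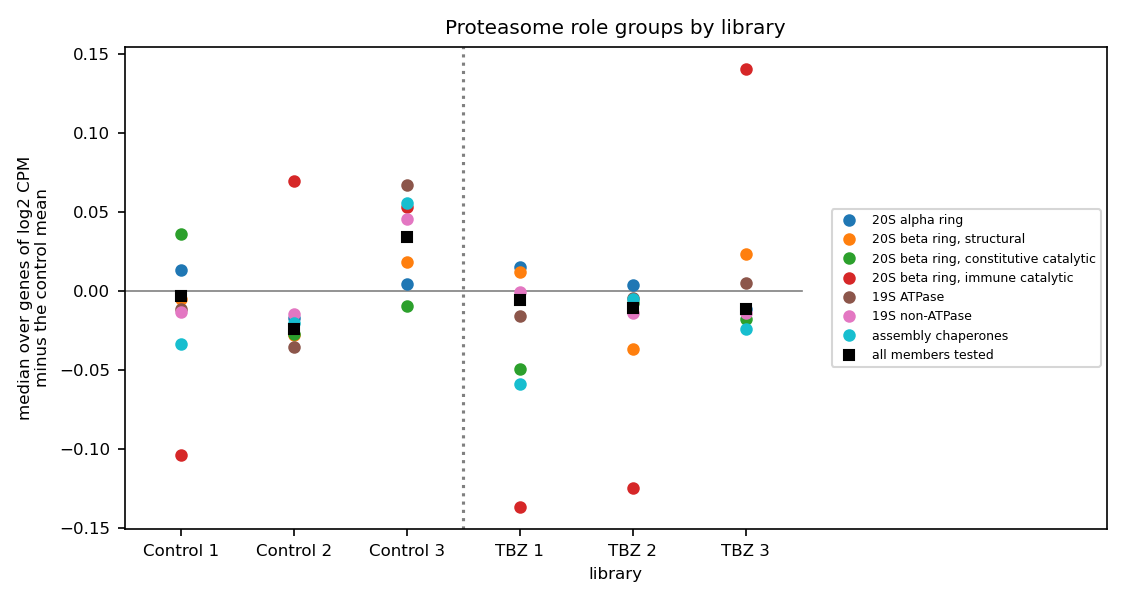
Median over the genes of each of 7 role groups (the tissue-restricted, activator and name-match groups are not drawn) of log2 CPM minus the control mean, for each library; squares show all 49 tested members. The squares of the TBZ libraries lie between those of Control 2 and Control 3, and the immune catalytic points are the most spread of the groups drawn, from -0.14 to 0.14.

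Genes that work with the proteasome but do not carry its gene names gave no call either. Of 26 such genes (ubiquitin genes, shuttle factors, transcription factors and accessory subunits), 26 were tested, 0 were called and 15 lay above 0 on the log2 scale (median log2 fold change 0.015). Pomp, the maturation chaperone of the core, measured 21.01, 20.02 and 20.6 FPKM in control and 20.9, 19.8 and 20.4 in TBZ, and Nfe2l1 measured 48.1, 49.9 and 47.6 against 48.8, 49.2 and 49.7. Both were chosen for their roles after values were seen. Zfand5, a ubiquitin-binding protein that stimulates the proteasome, measured 23.7, 24.2 and 22.6 FPKM in control and 22.5, 21.6 and 21.4 in TBZ, with separated groups (-0.11, SE 0.043, edgeR adjusted p = 0.474). Ecpas, a proteasome adaptor, stood at 0.086 on the same log2 scale (edgeR adjusted p = 0.624).

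The immune subunits serve class I antigen presentation, and 10 genes of that pathway were set beside them. Of these, 0 were called, beside 0.187% of all genes tested. On the log2 scale 3 lay above 0 (median log2 fold change -0.028), beside 50.1%. Tapbp, the peptide-loading chaperone tapasin, measured 12.7, 13.3 and 15.0 FPKM in control and 13.0, 13.1 and 11.6 in TBZ (-0.12, SE 0.072, edgeR adjusted p = 0.643). Erap1, which trims peptides, measured 6.97, 7.02 and 7.07 in control and 6.21, 6.70 and 6.85 in TBZ, with every TBZ library below every control (-0.091, SE 0.049, edgeR adjusted p = 0.599). No other gene of the 10 was separated, where 8.47% of all genes tested were separated upward and 7.03% downward.

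Of 9 interferon receptors, ligand and factors, 8 were tested and 0 called, beside 0.187% of all genes tested. The gene of interferon gamma itself (Ifng) had no read in any library. Stat2 measured 4.54, 4.71 and 5.39 FPKM in control and 4.20, 3.71 and 3.94 in TBZ, and Irf1 measured 5.28, 5.66 and 6.38 against 4.99, 4.99 and 4.22. For both, all TBZ libraries lay below all control libraries, with log2 fold changes of -0.30 (SE 0.079, edgeR adjusted p = 0.231) for Stat2 and -0.28 (SE 0.093, edgeR adjusted p = 0.365) for Irf1. They were named for the smallest p of the list, and no other gene of the 8 was separated. Over all genes tested, 8.47% were separated upward and 7.03% downward. Stat2 passed the threshold in 1 alternative, the fit with no filter on low counts, which called 445 genes against 34 in the main fit. Irf1 is an activator of the immune subunit genes, whose own values are given above.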

How the data were processed

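RNA of 3 control and 3 TBZ samples was selected for poly-A, made into paired-end libraries and sequenced, per the labels' protocols. STAR was the aligner and HTSeq the counter, on mm10, per the submitters' processing notes; versions are not given in the sources used here. The authors deposited whole-number read counts per gene and FPKM values (per kilobase of the deposited gene length). The FPKM values do not follow from the plain totals of counted reads, so they carry a scaling between libraries. Their table also has signal columns (the authors' normalized group means), log2 fold changes and p-values with adjusted p-values, which were used only where named. The edgeR and DESeq2 fits and the CPM values were computed from the counts. Levels, shares, ratios and sums in FPKM, and the limma fits, used the deposited FPKM.

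Counts were tested in R 4.3.3 with edgeR 4.0.16 (TMM scaling, filterByExpr with a minimum count of 10, quasi-likelihood F test, Benjamini-Hochberg adjustment over all 18226 tested genes, threshold 0.05). SE is the size of the log2 fold change divided by the root of F, and intervals are at 95%. Shares and summed levels were tested between groups by exact permutation, two-sided. DESeq2 1.42.0, limma 3.58.1 on log2(FPKM + 0.5), RLE scaling, no filter, a replicate block and leaving out each library were the alternatives.

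The members, role groups, lists and tests were chosen with earlier results of these data known. The text names the 6 catalytic genes; in each role group the 2 members with the smallest p and the one with the highest mean FPKM; the 2 largest log2 fold changes each way among members whose mean FPKM reached 1 in either group; untested members; and the 3 (pathway) or 2 (antigen, interferon) list genes with the smallest p. A gene so named is not reported here. Psma3, Psmg1, Pomp, Nfe2l1, Adrm1 and Sem1 were added after their values were seen. Exon overlap and principal transcripts came from GENCODE M21, where 48 of 50 members had the same start and end.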

Additional observations from a re-analysis of the deposited data

How the results depend on the processing

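No member was called under any alternative run, in which the median log2 fold change of the members ranged from -0.021 (without Control 2) to 0.012 (without Control 3). Of 372 values of named members under the alternatives, 6 changed sign. Over all genes, 34 were called, against 222 with DESeq2, 445 with no filter, 5 with the replicate block, 14, 13 and 14 with limma on log2(FPKM + 0.5, 0.1 and 1), 0 with limma and no filter, and 5 (without TBZ 3) to 36 when 1 library was left out (11 without TBZ 1 and 13 without Control 2). The count of members at an unadjusted p under 0.05 fell from 1 to 0 with DESeq2, with the block and on leaving out any library except Control 3. With Psmb11 admitted, the tissue-restricted median was -0.21 (DESeq2) and -0.19 (no filter), not 0.24. One interferon factor, Stat2, was called with no filter. Leaving out 1 library moved the alpha-ring median between -0.012 (without TBZ 2) and 0.019 (without Control 3), and the non-ATPase median between -0.026 (without Control 2) and 0.029 (without Control 3); the cause was not tested. Same-numbered libraries did not deviate together (r = 0.0046, -0.15 and -0.079), where differently numbered ones ran from -0.089 to 0.15. With 3 libraries per group these values cannot decide whether the numbers pair them, and no source used here states it. Psmb8, Psmb9, Psma8 and Psmb11 rest on few reads.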

Other observations

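Rows annotated as pseudogenes that carry a proteasome gene name were left out by the choice of protein-coding rows. There were 4 of them. Psmb6-ps2 had 1 read in TBZ 1 and 2 reads in TBZ 2, and Psmb7-ps2 had 2 reads in TBZ 2 and 1 in TBZ 3. Psmb6-ps and Psmb5-ps had 0 reads in all libraries. The functional genes Psmb5, Psmb6 and Psmb7 had mean counts of 4689, 7131 and 5294 reads.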
